A study of Mus musculus with 6 samples.

Results

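The genes described here encode nuclear subunits of the mitochondrial oxidative phosphorylation complexes, measured in dermal fibroblasts. They were taken by symbol, as genes named Nduf with a subunit letter and number, Uqcr, Cox4 to Cox8, Atp5 or Sdha to Sdhd, without pseudogenes. The rule gave 78 of the 22180 genes measured, with 31 in complex I, 4 in complex II, 7 in complex III, 19 in complex IV and 17 in complex V. Fibroblasts came from the ventral skin of female mice on a C57BL/6 background, aged 8 to 12 weeks. There were 3 samples from wild-type (WT) littermates, with skin in telogen, the resting phase of the hair cycle, and 3 from K14-PTHrP (KrP) transgenic mice, whose ventral skin is nipple-like. The KrP transgene expresses parathyroid hormone-related protein from the promoter of keratin 14, a gene known from basal keratinocytes. Cells were pooled before sorting for CD140 and against CD31, CD45, CD117 and CD49f, and the labels name 3 mice without saying whether these served each sample or each genotype, so the p-values may measure technical spread only.

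Oxidative phosphorylation is the final stage of cellular respiration. Complex I and complex II pass electrons from NADH and succinate to ubiquinone, complex III passes them to cytochrome c and complex IV to oxygen, and complex V uses the proton gradient built by complexes I, III and IV to make ATP. Most subunits are encoded in the nucleus and imported, while a few core subunits come from mitochondrial DNA and were not analysed here. Quiescent dermal fibroblasts are known to use both glycolysis and respiration.

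Values were log2 expression levels from 1 array per sample. Correlations between arrays over all probe sets were 0.986 to 0.994 within groups and 0.9755 to 0.989 across groups, and array medians were 6.34 to 6.43. The olfactory receptor genes, 1105 in number and not known to be used widely by fibroblasts, gave a guide to background, with a 95th percentile of 6.31 over all their values. The mean of 73 members lay above it. The 10 fibroblast markers averaged 11.27 to 11.88 over the WT samples and 11.75 to 12.34 over the KrP samples on the log2 scale, 9 of them with a log2 fold change above 0. The 15 skeletal muscle markers averaged 6.31 to 6.53 and 6.33 to 6.43, and the 11 adipocyte markers 6.72 to 6.82 and 6.61 to 6.82. Keratinocyte markers averaged 6.44 to 7.13 in WT and 6.25 to 6.45 in KrP samples, with 1 of 10 above 0 in log2 fold change. WT 2 stood apart in them, with the average of 7.13 and a median deviation of 0.54, where WT 1 and WT 3 had -0.05 and -0.21; the members' median log2 fold change without WT 2 was 0.11, with 0 members called. Markers of macrophages and other white blood cells averaged 6.12 to 6.52 and 6.08 to 6.28. Of all these and the vessel markers, the endothelial genes Tek and Cldn5 and the pericyte gene Cspg4 were called lower by limma. The KrP means of Tek (5.76) and Cldn5 (6.21) lay below the background guide. The macrophage gene Csf1r was called higher. Over all genes 1.03% were called lower and 1.15% higher, and 50.8% had a log2 fold change above 0. The log2 fold change was above 0 in 3 of 9 endothelial markers and in 6 of 10 pericyte and smooth muscle markers. Among the white blood cell markers it was above 0 in 1 of 10, Csf1r itself. The part of other cells in the members' differences was not tested.

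No single subunit gene passed the test between KrP and WT fibroblasts, and the differences were small. By limma with Benjamini-Hochberg adjustment over all genes, 0 of 78 were called higher and 0 lower at an adjusted p under 0.05, where 1.15% of all genes were called higher and 1.03% lower, or 2.18% in either direction. In sorted bulk RNA a change in the mix of cells and a change per cell cannot be told apart. The lowest adjusted p among members was 0.138, that of Atp5e. The 95% confidence intervals of all 78 differences lay within a 2-fold change in either direction, and those of 64 within a 1.5-fold change. Of all 22180 genes, 20405 and 15459 had intervals within these bounds. The small differences leaned upward. The log2 fold change, KrP mean minus WT mean, was above 0 in 61 of the 78, compared with 50.8% of all genes, and its median was 0.11 (1.08-fold), compared with 0.01 over all genes. At an unadjusted p under 0.05, 12 members were higher and 1 lower, where 9.44% and 6.56% of all genes were. In 17 members every KrP sample lay above every WT sample and in 1, Cox7c, every KrP sample lay below, where 11.4% and 8.93% of all genes were so separated.

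**Figure D1:**
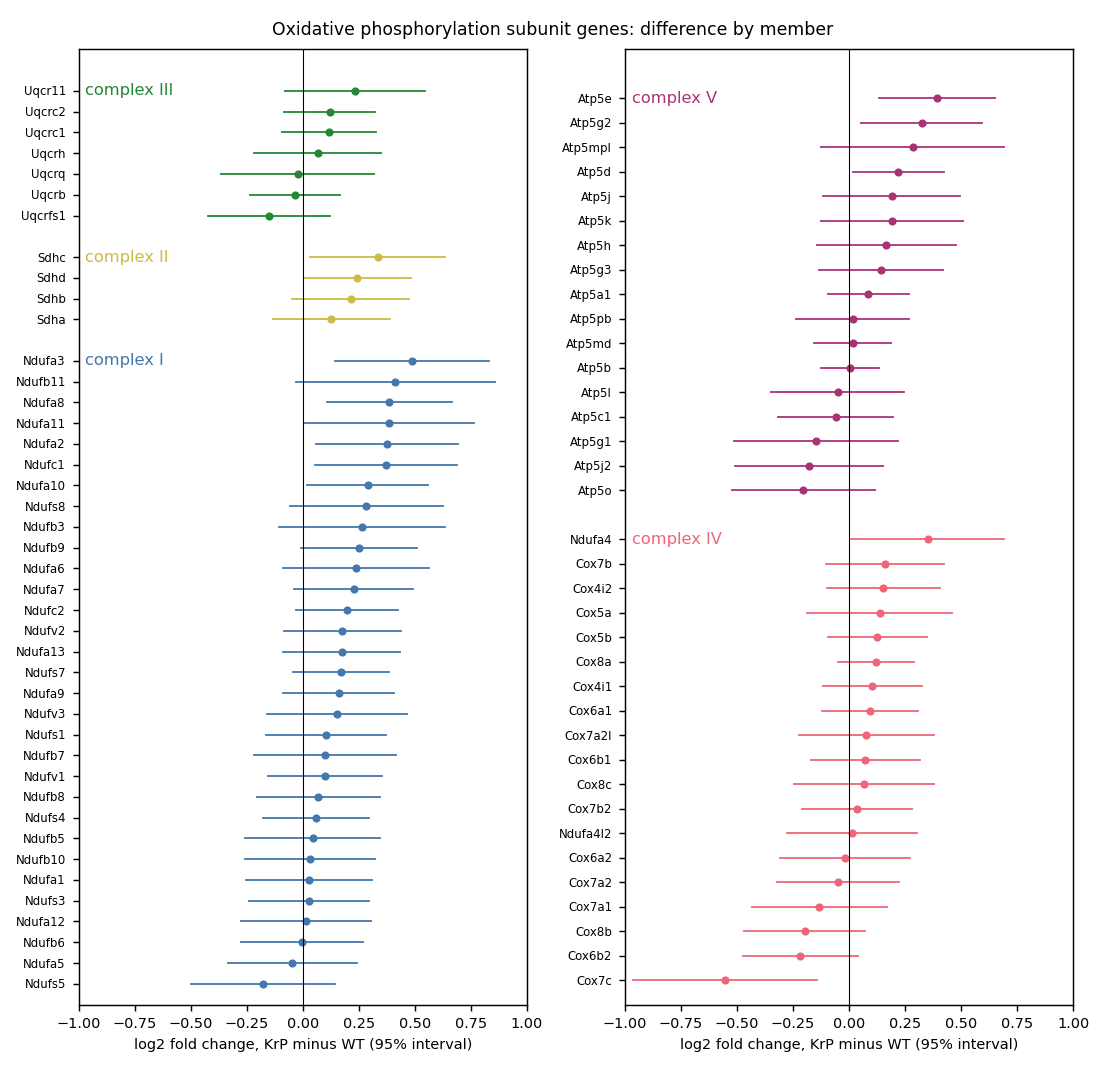
Log2 fold change (KrP mean minus WT mean, points) with its 95% confidence interval (lines) for each of the 78 members, ordered within complexes I to V; the x axis is in log2 units. Most points sit to the right of 0, none reaches 1, and Cox7c at -0.55 is the farthest to the left.

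The samples were not evenly spread within the groups. After each gene was centred on its mean over the 6 arrays, the median over the members was 0.02 in WT 1, -0.05 in WT 2 and -0.14 in WT 3. In the KrP samples numbered 1, 2 and 3 it was 0.11, 0.01 and 0.02. KrP 1 was thus the highest and WT 3 the lowest, and WT 1 lay above KrP 2, so the groups overlapped. Over all genes the same medians ran from -0.03 to 0.02. Over all genes, deviations from the group means correlated by 0.414, 0.350 and 0.120 in same-numbered samples 1, 2 and 3. In the other pairs they correlated by -0.385 to 0.067. The fit was therefore repeated with the replicate number as a block, a pairing read from these data and not from a label. In same-numbered pairs, 37 of the 78 members were higher in KrP in all 3 pairs, compared with 23.4% of all genes. The block left the fold changes as they were and called 2 members higher, Ndufa3 and Atp5g2, and 1 lower, Cox7c, where 5.33% of all genes were called higher and 3.02% lower. The shares of members, 2 of 78 and 1 of 78, were below those backgrounds.

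**Figure D2:**
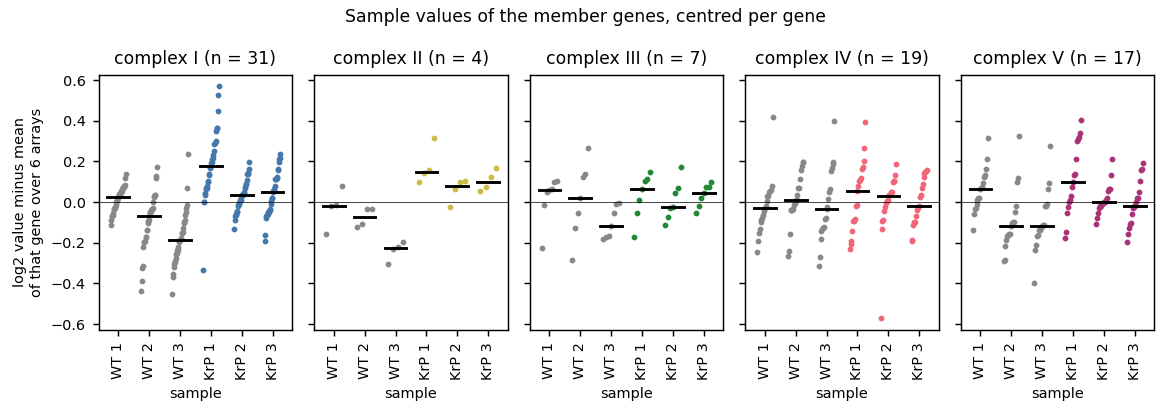
Log2 value of each member minus its mean over the 6 arrays (y axis) in each sample (x axis), by complex, with WT samples in grey, KrP samples in colour and the median as a black bar. In complexes I and II the medians of the 3 KrP samples lie above those of the 3 WT samples; in complexes III, IV and V they overlap.

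Those 3 members show the size of the differences. Ndufa3, a small accessory subunit in the membrane arm of complex I, had log2 values of 10.51, 10.30 and 10.33 in WT samples 1 to 3 and 11.15, 10.61 and 10.84 in the KrP samples. The groups did not overlap, and the sample numbered 1 was highest in each. Its log2 fold change of 0.49 ± 0.15 SE (1.40-fold) was the largest above 0 among the members, with an adjusted p of 0.160 by limma, or 0.0307 with the block and 0.0476 without KrP 2. Atp5g2, 1 of 3 genes for the proton-carrying c subunit of ATP synthase, had 11.55, 11.24 and 11.32 in WT and 11.84, 11.55 and 11.69 in KrP samples. WT 1 equalled KrP 2, while each KrP sample lay above the WT sample of the same number. Its log2 fold change was 0.32 ± 0.12 SE (adjusted p = 0.225 by limma, or 0.0436 with the block), and a second probe set of the gene gave a difference of 0.33. Cox7c, a small subunit of cytochrome c oxidase, ran the other way, with 8.96, 8.55 and 8.94 in WT and 8.35, 7.97 and 8.47 in KrP samples. Every KrP sample lay below every WT sample, and the samples numbered 2 were the lowest of both groups. Its log2 fold change of -0.55 ± 0.18 SE was the largest in size of all members (adjusted p = 0.176 by limma, or 0.0230 with the block).

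**Figure D3:**
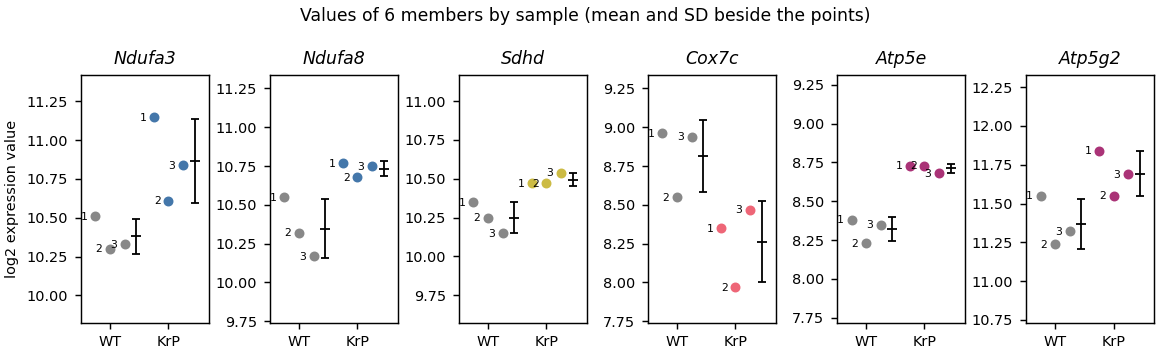
Log2 expression value (y axis, each panel spanning 1.6 log2 units) of 6 members in each WT (grey) and KrP (coloured) sample, with the replicate number to the left of each point and the group mean ± SD to the right. Only Cox7c is lower in KrP samples, and only Atp5g2 has a KrP point level with a WT point.

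The stretches before the annotated starts of these 3 genes are shown beside that of Sdhd, the member whose window held the most kinds of motif searched, 4 of 5. Sequences are from RefSeq (GRCm38.p6), matched by gene ID for 64 of the 78 members, and each printed stretch is the 150 bases before the start, 5′ to 3′ on the gene's strand. The positions are chr7:3617223-3617372 on the plus strand for Ndufa3 and, on the minus strand, chr15:102671048-102671197 for Atp5g2, chr13:86046796-86046945 for Cox7c and chr9:50603850-50603999 for Sdhd. Capitals mark the motif matches that lie wholly inside the printed stretch.
Ndufa3: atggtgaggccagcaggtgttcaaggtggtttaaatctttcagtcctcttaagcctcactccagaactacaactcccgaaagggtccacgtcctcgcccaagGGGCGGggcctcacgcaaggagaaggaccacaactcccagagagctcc
Atp5g2: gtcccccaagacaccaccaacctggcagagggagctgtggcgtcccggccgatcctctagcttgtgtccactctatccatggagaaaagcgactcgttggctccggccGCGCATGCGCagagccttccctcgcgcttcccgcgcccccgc
Cox7c: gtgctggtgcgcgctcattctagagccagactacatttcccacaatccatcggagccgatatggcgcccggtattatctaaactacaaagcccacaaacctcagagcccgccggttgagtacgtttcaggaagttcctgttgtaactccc
Sdhd: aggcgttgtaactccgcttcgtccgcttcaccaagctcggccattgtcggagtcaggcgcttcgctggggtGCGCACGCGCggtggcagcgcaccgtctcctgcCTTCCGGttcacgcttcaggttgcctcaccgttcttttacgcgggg
The capitals in Ndufa3 are an Sp1 match, those in Atp5g2 an NRF1 match at positions -42 to -33 from the start, and those in Sdhd an NRF1 match at -79 to -70 and a GABP match at -46 to -40. Matches that reach past the printed stretch or lie beyond it are not marked. Those were an Sp1 match in Atp5g2, and an Sp1 match and an oestrogen-related receptor match in Sdhd. Cox7c held none of the 5 motifs in its window.

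NRF1 and GABP are transcription factors known for driving nuclear genes of mitochondrial proteins. The motifs were searched on both strands in windows from 250 bases before to 50 bases after the start. The NRF1 motif, of which Atp5g2 and Sdhd show matches, was held by 15 of 64 members (23.4%), against 5.19% of all 27025 genes with a window and 7.26% of the 16918 of those on the array. The GABP motif, CCGGAAG, was held by 17 members (26.6%), compared with 9.93% of all genes and 12.7% of those on the array. For the YY1 motif, AAGATGGCG, the values were 6 members (9.38%), 1.64% and 2.17%, and for the oestrogen-related receptor motif, TCAAGGTCA, 2 members (3.12%), 0.466% and 0.366%. The short Sp1 motif, GGGCGG, was held by 27 members (42.2%), a share above the 38.2% of all genes and below the 49.6% of those on the array. There was 1 overlap between matches of different motifs in the members' windows. The NRF1 motif was held by 5 of 28 genes in complex I, 2 of 3 in complex II, 1 of 4 in complex III, 1 of 14 in complex IV and 6 of 15 in complex V. The median log2 fold change was 0.14 in members with the NRF1 motif and 0.10 in those without, and 0.12 in members both with and without the GABP motif. A match describes the letters only.

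Complex I genes leaned upward more evenly than the set as a whole. Of 31 members, 28 had a log2 fold change above 0, with a median of 0.17 (1.13-fold). None passed the test. At an unadjusted p under 0.05, 6 were higher and 0 lower, where 9.44% and 6.56% of all genes were. In 9 of the 31 all KrP samples lay above all WT samples, where 11.4% of all genes were so separated. The 6 measured core subunits, which carry the flavin and the iron-sulphur clusters or bind ubiquinone, had log2 fold changes from 0.03 to 0.28. Ndufs8, an iron-sulphur subunit, had the largest, with 10.69, 10.42 and 10.31 in WT and 10.98, 10.55 and 10.74 in KrP samples. Its KrP 2 value lay below WT 1, and the adjusted p was 0.406 by limma. Ndufs7, another iron-sulphur subunit, had a difference of 0.17 ± 0.09 SE, the NADH-binding subunit Ndufv1 of 0.10 ± 0.11, and its partner Ndufv2 of 0.18 ± 0.11. Ndufs1, the largest subunit, had a log2 fold change of 0.10 and Ndufs3 of 0.03, with a 95% interval from -0.24 to 0.29 for Ndufs3. A probe set shared by Ndufs1 and another gene, Ino80dos, gave a difference of -0.26 ± 0.16 SE.

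The upper end of complex I was made up of accessory subunits, which surround the core and were 25 of its 31 members. Their median log2 fold change was 0.17, close to the 0.14 of the 6 core subunits. Ndufa8, which sits on the intermembrane side, had 10.55, 10.32 and 10.17 in WT and 10.77, 10.68 and 10.75 in KrP samples, without overlap. Its log2 fold change was 0.39 ± 0.12 SE (95% interval 0.11 to 0.67, adjusted p = 0.168 by limma, or 0.0654 with the block), and its second probe set gave a difference of 0.26. Ndufa2, an accessory subunit of the matrix arm, had 9.79, 9.65 and 9.52 in WT and 10.19, 9.82 and 10.08 in KrP samples. These groups did not overlap either, and neither did those of Ndufc1, Ndufa10, Ndufb9, Ndufa7, Ndufc2 and Ndufa13, with log2 fold changes from 0.17 to 0.37. Ndufb11, a membrane arm subunit encoded on the X chromosome, had a difference of 0.41 ± 0.19, but its groups overlapped, with 7.08 in WT 1 and 7.00 and 7.07 in KrP 2 and KrP 3. Ndufa11 had a difference of 0.38 on the probe set with the higher mean and of 0.07 on its other probe set.

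The 3 complex I genes with a log2 fold change below 0 were Ndufs5 at -0.18, Ndufa5 at -0.05 and Ndufb6 at -0.0033. Ndufs5 had a mean of 5.37, below the background guide. A probe set shared by Ndufs5 and its pseudogene lay higher, at 7.25, 6.60 and 6.82 in WT and 7.63, 7.08 and 7.28 in KrP samples, with a difference of 0.44 ± 0.20 SE (adjusted p = 0.346 by limma). Signal from the gene and from the pseudogene cannot be told apart there. Ndufb2, Ndufb4 and Ndufs6, unlike Ndufs5, were measured only by probe sets shared with other genes. Their log2 fold changes were 0.01, 0.09, and 0.16 and 0.18 on the pair for Ndufs6.

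All 4 genes of complex II, succinate dehydrogenase, which belongs to both the respiratory chain and the tricarboxylic acid cycle, had log2 fold changes above 0, with a median of 0.23 (1.17-fold). Each was higher in KrP in all 3 same-numbered pairs, as were 23.4% of all genes. None passed the test, and 2 were higher at an unadjusted p under 0.05, where 9.44% of all genes were. Sdhd, a membrane anchor, had 10.35, 10.25 and 10.15 in WT and 10.47, 10.47 and 10.54 in KrP samples. Its groups did not overlap, and its log2 fold change was 0.24 ± 0.10 SE (adjusted p = 0.301 by limma, or 0.186 with the block). The other anchor, Sdhc, had 8.87, 8.99 and 8.72 in WT and 9.34, 9.09 and 9.15 in KrP samples, a difference of 0.33 ± 0.13. The iron-sulphur subunit Sdhb had 9.08, 8.99 and 8.90 and then 9.24, 9.20 and 9.17, a difference of 0.21 ± 0.11. Sdhc and Sdhb did not overlap between groups either, where 11.4% of all genes had every KrP sample above every WT sample. The catalytic flavoprotein Sdha, at 10.98, 10.87 and 10.67 in WT and 11.06, 10.88 and 10.96 in KrP samples, did overlap, with a difference of 0.13 ± 0.11.

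Complex III genes, of the cytochrome bc1 complex, differed little. Of 7 members, 4 had a log2 fold change above 0 and 3 below, with a median of 0.07, and none was called, even at an unadjusted p under 0.05, or free of overlap between groups. The median was -0.01 without WT 3. The Rieske iron-sulphur protein Uqcrfs1, which hands electrons to cytochrome c1, was the lowest at -0.15 ± 0.12 SE, with 8.55, 8.59 and 8.44 in WT and 8.28, 8.38 and 8.47 in KrP samples. Uqcr11, a small accessory subunit, was the highest at 0.23 ± 0.14. The large core proteins Uqcrc1 and Uqcrc2 had differences of 0.12 each, with 95% intervals from -0.09 to 0.33 and from -0.08 to 0.32. Uqcr10, on a probe set shared with another gene, had a difference of 0.14. Cytochrome c1 (Cyc1), a heme-bearing subunit of the complex, which the symbol rule does not take, had a difference of 0.08 ± 0.10 (adjusted p = 0.774 by limma).

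Complex IV, cytochrome c oxidase, had the widest spread, from -0.55 for Cox7c to 0.35 for Ndufa4, with 13 of 19 members above 0 and a median of 0.07. At an unadjusted p under 0.05, 1 was higher and 1 lower, where 9.44% and 6.56% of all genes were. Ndufa4, named for complex I but known as a subunit of complex IV, had 10.71, 10.39 and 10.34 in WT and 11.05, 10.63 and 10.81 in KrP samples. KrP 2 lay below WT 1, and the difference was 0.35 ± 0.15 SE (adjusted p = 0.299 by limma, or 0.0615 with the block). Of the regulatory and structural subunits of the common enzyme, Cox4i1 had a difference of 0.10 ± 0.10, Cox5a of 0.14 ± 0.14, Cox5b of 0.13 ± 0.10 and Cox6a1 of 0.09 ± 0.09. Cox6b1, Cox7b and Cox8a had 0.07, 0.16 and 0.12, and Cox7a2 had -0.05. Of these 8, Cox5b and Cox8a did not overlap between groups, where 11.4% of all genes had every KrP sample above every WT sample. Cox8a was at 12.17, 12.21 and 12.08 in WT and 12.32, 12.25 and 12.25 in KrP samples. Cox6c, on 2 probe sets shared with another gene, had differences of 0.13 and 0.17. Without the 9 tissue and paralogue forms the median of complex IV was 0.11.

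The forms of complex IV subunits that belong to other tissues lay at or near background. Cox7a1 and Cox8b, known from muscle and brown fat, had means of 6.19 and 5.77, and the testis forms Cox7b2 and Cox8c had 4.26 and 4.97, all below the background guide. The testis form Cox6b2 was at 6.32 and the muscle form Cox6a2 at 7.00. Their log2 fold changes ran from -0.22 for Cox6b2 to 0.07 for Cox8c, and none passed the test. The skeletal muscle markers Acta1 and Ckm differed by -0.04 and -0.03, and the brown fat uncoupling protein Ucp1 by 0.00. Of the forms that respond to oxygen, Cox4i2 had 7.15, 7.08 and 7.25 in WT and 7.29, 7.27 and 7.38 in KrP samples, a difference of 0.15 ± 0.11 SE without overlap (adjusted p = 0.556 by limma). Ndufa4l2 had 6.24, 6.36 and 6.56 and then 6.30, 6.35 and 6.55, a difference of 0.01 ± 0.13. Cox7a2l, which joins complexes III and IV into supercomplexes, differed by 0.08 ± 0.13.

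Complex V, the ATP synthase, was flat in its catalytic part. The catalytic beta subunit Atp5b had 13.47, 13.36 and 13.39 in WT and 13.44, 13.41 and 13.38 in KrP samples, a difference of 0.00 ± 0.06 SE with a 95% interval from -0.13 to 0.13. The alpha subunit Atp5a1 differed by 0.09 ± 0.08 and the gamma subunit Atp5c1, the central shaft, by -0.06 ± 0.11. The small subunits at the foot of the shaft lay higher. Atp5e, the epsilon subunit, had 8.38, 8.23 and 8.35 in WT and 8.73, 8.73 and 8.68 in KrP samples, and Atp5d, the delta subunit, had 11.33, 11.21 and 11.23 and then 11.44, 11.43 and 11.56. Neither overlapped between groups, and the differences were 0.39 ± 0.11 (adjusted p = 0.138 by limma) and 0.22 ± 0.09. A second probe set for Atp5e gave a difference of -0.03, while the second one for Atp5d gave 0.14. Of the other genes for the c subunit, Atp5g3 differed by 0.14 and Atp5g1 by -0.15. Atp5o, which links the head to the stalk, was the lowest at -0.20 ± 0.14. In all, 12 of 17 were above 0, and the median was 0.09, or 0.02 with the probe sets of a gene averaged. At an unadjusted p under 0.05, 3 were higher and 0 lower, where 9.44% and 6.56% of all genes were.

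Other nuclear genes of mitochondria were read from the same fit. The mitochondrial ribosomal proteins had a median log2 fold change of 0.13 with 58 of 71 above 0, and the assembly factors of complexes I to V 0.12 with 37 of 44 above 0. The tricarboxylic acid cycle and pyruvate dehydrogenase genes had 0.13 with 17 of 22 above 0. The cytosolic ribosomal proteins had 0.03 with 42 of 65 above 0, and glycolysis genes 0.01 with 11 of 21. In all 5 lists 0 genes passed the test in either direction. At an unadjusted p under 0.05, 9.44% of all genes were higher and 6.56% lower. Of the mitochondrial ribosomal genes 11 were higher and 1 lower, of the assembly factors 5 and 0, of the cycle genes 3 and 0. Of the cytosolic ribosomal genes 1 was higher and 1 lower, and of the glycolysis genes 3 and 3. With the block the calls, higher and lower, were 3 and 0, 1 and 0, 4 and 0, 0 and 1, and 2 and 2 in the same order. Over all genes 5.33% were called higher and 3.02% lower with the block. The 4 cycle and pyruvate dehydrogenase genes called with the block were Pdk3 and Pdk2, kinases that inhibit pyruvate dehydrogenase, the mitochondrial isocitrate dehydrogenase Idh2, and citrate synthase (Cs), which opens the cycle. Pdk3 had the largest difference, 0.60 ± 0.30 SE (adjusted p = 0.385 by limma, or 0.0177 with the block), followed by Pdk2 at 0.58 ± 0.21 (0.220, or 0.0274 with the block) and Idh2 at 0.49 ± 0.26 (0.420, or 0.0396 with the block). Cs had the smallest, at 11.83, 11.67 and 11.69 in WT and 12.06, 12.00 and 12.04 in KrP samples. These did not overlap, and the difference was 0.30 ± 0.08 SE (adjusted p = 0.112 by limma, or 0.0480 with the block).

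**Figure D4:**
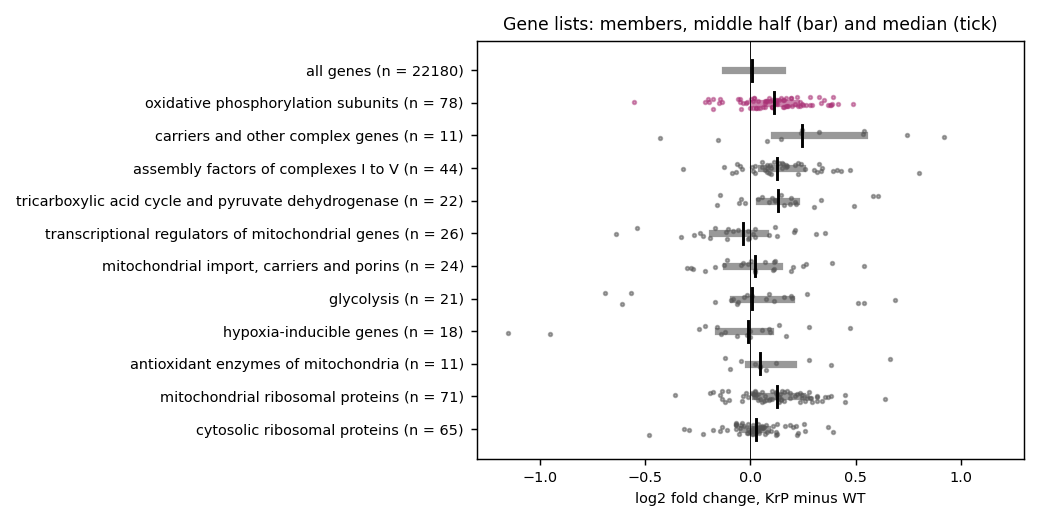
Log2 fold change (KrP minus WT, x axis) of the genes in each list (points), with the middle 50% as a bar and the median as a tick; all genes are shown by bar and tick only. The subunits, the mitochondrial ribosomal proteins, the assembly factors and the cycle genes have medians of 0.11 to 0.13, while all genes, glycolysis genes and cytosolic ribosomal proteins have medians of 0.01 to 0.03.

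Genes around the complexes included differences larger than that of any member. A mixed list of 11 carriers and further genes also held the complex IV assembly proteins Coa3 and Higd2a. Of these 11, 9 were above 0 with a median of 0.24, and none passed the test. Cyc1 and the acyl carrier Ndufab1 differed by 0.08 and 0.14. At an unadjusted p under 0.05, 5 were higher and 1 lower, where 9.44% and 6.56% of all genes were, and with the block 4 were called higher and 0 lower, where 5.33% and 3.02% were. Coa3, which helps to build complex IV, had 10.19, 9.60 and 9.81 in WT and 10.80, 10.46 and 10.57 in KrP samples. It did not overlap, and its difference was 0.74 ± 0.17 SE (adjusted p = 0.0743 by limma, or 0.00755 with the block). Higd2a, a complex IV assembly protein, had 9.01, 8.66 and 8.78 in WT and 10.37, 9.05 and 9.79 in KrP samples. Its difference was 0.92 ± 0.30 SE. Atpif1, the inhibitor of ATP synthase, and Etfdh, which feeds electrons from fatty acid oxidation to ubiquinone, differed by 0.53 ± 0.16 and 0.54 ± 0.16. For Higd2a, Atpif1 and Etfdh the adjusted p-values by limma were 0.178, 0.145 and 0.143, or 0.0298, 0.0248 and 0.0347 with the block. Of the assembly factors, Ndufaf3 of complex I differed by 0.80 ± 0.20 (adjusted p = 0.102, or 0.00731 with the block). Among the 11 carriers and further genes, the 1 lower at an unadjusted p under 0.05 was Higd1a, a relative of Higd2a. It had 8.66, 8.49 and 8.66 in WT and 8.30, 8.25 and 7.97 in KrP samples. Its groups did not overlap, and its difference was -0.43 ± 0.14 (adjusted p = 0.169 by limma, or 0.0865 with the block). Cytochrome c (Cycs), the mobile carrier between complexes III and IV, was at -0.15 ± 0.10.

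Regulators of mitochondrial genes did not share the upward lean. Of 26, 10 were above 0, and the median was -0.04. By limma 0 rose and 1 fell, or 0 and 2 with the block. At an unadjusted p under 0.05, 1 was higher and 2 were lower. Beside each list here, the shares of all genes higher and lower were 1.15% and 1.03% by limma, or 5.33% and 3.02% with the block. At an unadjusted p under 0.05 they were 9.44% and 6.56%. The gene that fell was Ppard, a fatty acid sensor, from 12.39 ± 0.18 to 11.75 ± 0.12 (SD, n = 3 each; adjusted p = 0.0304 by limma). The coactivator Ppargc1a lay under the background guide, at 5.33 in WT and 5.32 in KrP samples. Nrf1 and Gabpa, genes of the factors of the NRF1 and GABP motifs above, differed by -0.01 ± 0.14 and 0.02 ± 0.10 SE. Gabpb1 and Gabpb2, also genes of GABP, differed by -0.33 ± 0.17 and -0.23 ± 0.13 (adjusted p = 0.390 and 0.432 by limma). The oestrogen-related receptor Esrra differed by 0.13 ± 0.12 and Tfam, which packages and transcribes mitochondrial DNA, by -0.24 ± 0.19. Of 18 hypoxia-inducible genes, 0 rose and 1, the stress-responsive gene Ndrg1, fell (difference -1.15 ± 0.16, adjusted p = 0.0130 by limma). With the block 2 of them were called lower, as at an unadjusted p under 0.05. Import, carrier and porin genes had a median of 0.02, and antioxidant enzymes of 0.05, with 0 of 24 and 0 of 11 called, or 2 and 1 higher with the block. At an unadjusted p under 0.05, 1 import gene and 2 antioxidant genes were higher and 0 lower.

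The count of 0 depended on how the arrays were weighted. With weights estimated from the arrays, 21 members were called higher and 5 lower, where 16.9% and 12% of all genes were (28.9% in either direction), and the weights ran from 0.409 for WT 2 to 2.66 for WT 3 and 7.91 for KrP 3, so that fit rested mostly on 1 array in each group.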

How the data were processed

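The deposited table holds log2 expression values made by the authors, 1 per probe set and array, for 34390 probe sets. Per the submitters' processing notes RMA and Partek were used; neither a version nor a filter is stated. KrP 2 and KrP 3 carry a different keratin in their description; K14 was taken from the genotype and source fields. Arrays carry no read depth, so their number limits the precision.

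Of the probe sets, 23521 had 1 gene in the platform annotation, 1814 had several and 9055 none; symbols were updated by gene ID in RefSeq (GRCm38.p6) for 23328. For a gene with several probe sets, 9 members among them, the one with the highest mean was taken. Small subunits have many pseudogenes that can share probe signal. KrP and WT, 3 arrays each, were compared with limma 3.58.1 in R 4.3.3 (lmFit, eBayes with a trend), with Benjamini-Hochberg adjustment over 22180 genes, a threshold of 0.05 and no block; the fit was tested on simulated data. Deviations from group means correlated by 0.414, 0.350 and 0.120 in same-numbered pairs, so the block is a pairing read from the data, not from a label. Alternatives changed the block, trend, prior, weights, filter, normalisation, probe set choice and samples. The members and lists were chosen with earlier results of these data known. Named genes were members called in the fit or with the block, the extremes of each complex, isoforms, core subunits and called genes of the lists, up to 3 per list and direction; others, such as Ndufa8, Ndufb11, Higd1a, Acta1 and the shared or second probe sets, were chosen after their values were seen. Figures were drawn with matplotlib 3.10.9.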

Additional observations from a re-analysis of the deposited data

How the results depend on the processing

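The median log2 fold change of the 78 members stayed above 0 in the 18 alternatives run, between 0.07 and 0.14. With the replicate block, the members called higher in KrP were 2 and the members called lower in KrP 1; the genes called higher over all genes were 1182 and the genes called lower over all genes 669, compared with 255 and 228 without it. With array weights they were 21 and 5, and 3759 and 2651 over all genes. Leaving out 1 sample gave 45 to 682 genes higher and 40 to 434 lower over all genes, with the fewest without KrP 3 (45 and 40) and WT 3 (53 and 48) and the most without KrP 2 (682 and 434); it gave 0 or 1 members higher and 0 lower. The median of complex III ran from -0.0067 to 0.1133 in those fits. Without tissue and paralogue isoforms the median of complex IV was 0.1117. Of the 78 members, 54 kept the sign of their log2 fold change in every alternative run, and the 24 that did not had log2 fold changes of at most 0.17 in size without the block. With 3 arrays per group, no member's difference passed the test without the block, the array weights or the loss of KrP 2. The causes of these shifts were not tested.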
